A study of Mus musculus with 7 samples.

Results

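The genes described here were the cytochrome P450 genes, taken as every row of the deposited count table whose symbol starts with Cyp, a number and a letter; 99 of 21861 rows matched. They were examined in RNA-seq libraries of aged mouse retinal pigment epithelium (RPE), whose pigmented cells support and renew the photoreceptors. The tissue was collected 12 weeks after treatment with an adeno-associated virus (AAV) carrying either GFP, the vector control (AAV-GFP, 3 libraries), or GSTA4, a glutathione transferase that conjugates lipid aldehydes (AAV-GSTA4, 4 libraries). All groups had thus received a vector, and the labels used here do not give the strain, the sex, the exact age, the promoter of the vectors or whether eyes were pooled. Nothing in the labels says that the libraries of a group came from separate animals, so p-values measure only the spread between these libraries, which may be partly technical; Y-linked RNA, given below, differed within both groups.

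Cytochrome P450 enzymes are heme proteins that insert an oxygen atom into their substrates, with electrons passed on by P450 oxidoreductase in the endoplasmic reticulum or by ferredoxin in mitochondria. Families 1 to 3 act mainly on foreign compounds, family 4 on fatty acids, and the others mainly on sterols, steroids, vitamin D and retinoic acid. In the eye, P450 enzymes are known for clearing retinoic acid, for turning over sterols, and through human disease genes such as CYP1B1 in congenital glaucoma and CYP4V2 in Bietti crystalline dystrophy. Cyp2f2 is best known from the club cells of the mouse airway, where it activates naphthalene.

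Total counts ranged from 15329181 to 28998964 per library, and values are given as CPM, counts scaled to a common library total, after correction for library composition by the trimmed mean of M values (TMM). Lists of values follow the replicate order, 1 to 3 for AAV-GFP and 1 to 4 for AAV-GSTA4. All 14 RPE markers had more than 3 counts in each of the 7 libraries, and their summed level was 23805 to 71041 CPM in AAV-GFP and 62032 to 111598 CPM in AAV-GSTA4. RNA of neighbouring tissue was present in every library: 18 rod markers summed to 16033 to 43692 CPM in AAV-GFP and 8569 to 15337 CPM in AAV-GSTA4, and 10 lens markers to 3131 to 13761 CPM and 4812 to 128676 CPM. AAV-GFP replicate 3 stood apart, with the lowest RPE sum, the highest rod sum and a TMM factor of 1.36 against 0.868 to 1.05 in the other 6 libraries. The row hGSTA4, read as the transgene from its name, was at 0.140, 0.0386 and 0.0480 CPM in AAV-GFP and at 222, 251, 2.64 and 43.7 CPM in AAV-GSTA4. The row d2EGFP was at 4.61, 153 and 113 CPM in AAV-GFP and at 8.58, 3.07, 0.411 and 0.959 CPM in AAV-GSTA4. The library labelled AAV-GFP replicate 1 thus held little of it, less than AAV-GSTA4 replicate 1. In bulk tissue, fewer cells of a type and less RNA per cell cannot be told apart.

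Of the 99 P450 genes, 21 were detected in all 7 libraries, 52 in some libraries and 26 in none, where detected means more than 3 counts, the limit that a count of 0 allows. The 26 genes that were not detected at this depth include Cyp1a1 and Cyp1a2, the classic targets of the aryl hydrocarbon receptor, Cyp8b1 of bile acid synthesis, Cyp19a1, the aromatase, and the adrenal enzymes Cyp11b1, Cyp11b2 and Cyp21a1. Exactly 10 of them had 0 counts in every library. P450 genes took 0.0463% to 0.0758% of a library's counts. Family 2, the largest with 48 genes beside Cyp2r1, which is counted with the vitamin D enzymes, had 5 detected in all libraries, and family 4 had 8 of 20. The sterol and bile acid enzymes had 4 of 6, the retinoic acid clearing enzymes 1 of 3, and the vitamin D enzymes 0 of 3.

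Libraries differed in how many P450 genes they held. The AAV-GFP libraries had 37, 34 and 58 detected, and the AAV-GSTA4 libraries had 35, 39, 35 and 49. AAV-GFP replicate 3 was thus the highest although it had the fewest counts in all. Of the 17 genes detected in exactly 1 library, 8 were detected there alone, among them Cyp2j5 with 42 counts, Cyp2d26 with 40 counts and Cyp2a12 with 21 counts, each at 0 counts in all the other libraries. Olfactory and vomeronasal receptor genes, which are expressed in the nose, were also highest in that library: of 1490 such rows, 35, 29 and 419 had more than 3 counts in AAV-GFP, and 49, 229, 105 and 208 in AAV-GSTA4. Their part in the P450 detections was not tested.

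**Figure D1:**
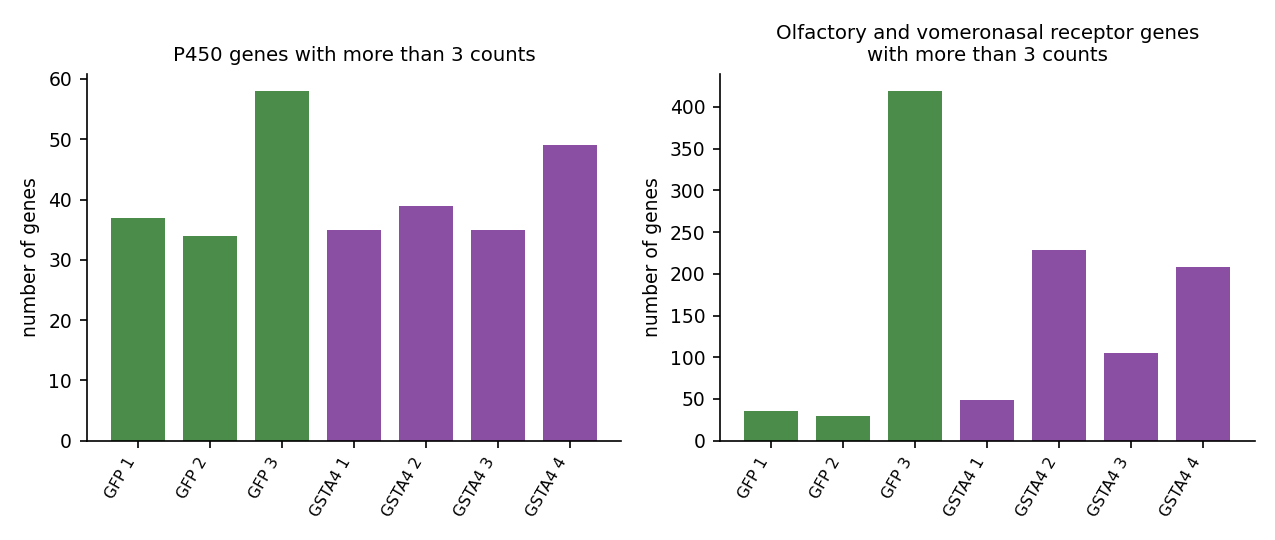
Number of P450 genes (left) and of olfactory and vomeronasal receptor genes (right) with more than 3 counts in each of the 3 AAV-GFP and 4 AAV-GSTA4 libraries; each bar is 1 library. AAV-GFP replicate 3 is highest in both panels, with 58 P450 genes and 419 receptor genes.

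Levels of different genes were compared as CPM per kilobase (kb) of annotated exon. By the mean over the 7 libraries, Cyp4f17, a family 4 enzyme of the cluster on chromosome 17, was highest at 45.8 CPM per kb. Cyp2f2 followed at 22.1 CPM per kb, the mitochondrial sterol 27-hydroxylase Cyp27a1 at 20.3 and Cyp4a12b, of a fatty acid hydroxylase subfamily, at 20.1. These 3 means lay far closer to each other than the libraries of any of them did, so their order was not resolved. In AAV-GFP alone Cyp2f2 was highest, at 33.3 CPM per kb beside 27.0 for Cyp4f17, and without AAV-GFP replicate 1 its mean over the other 6 libraries was 11.8 CPM per kb. Next came Cyp2j6, of the epoxygenase subfamily 2J, and Cyp4f13, both at 12.1 CPM per kb, the oxysterol 7-alpha-hydroxylase Cyp39a1 at 10.9, Cyp4v3, the mouse counterpart of CYP4V2, at 9.91, Cyp4f16 at 7.83 and Cyp2d22 at 6.57.

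The spread across libraries differed between genes. Among genes detected in all 7 libraries, the highest library exceeded the lowest 1.88-fold for Cyp4f18, 2.17-fold for Cyp46a1, 2.24-fold for Cyp7b1 and 2.27-fold for Cyp4f13. It ran up to 8.08-fold for Cyp1b1 and 8.37-fold for Cyp3a13, and was 33.2-fold for Cyp2f2, 56.2-fold for Cyp4a12b and 84.6-fold for Cyp26a1.

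**Figure D2:**
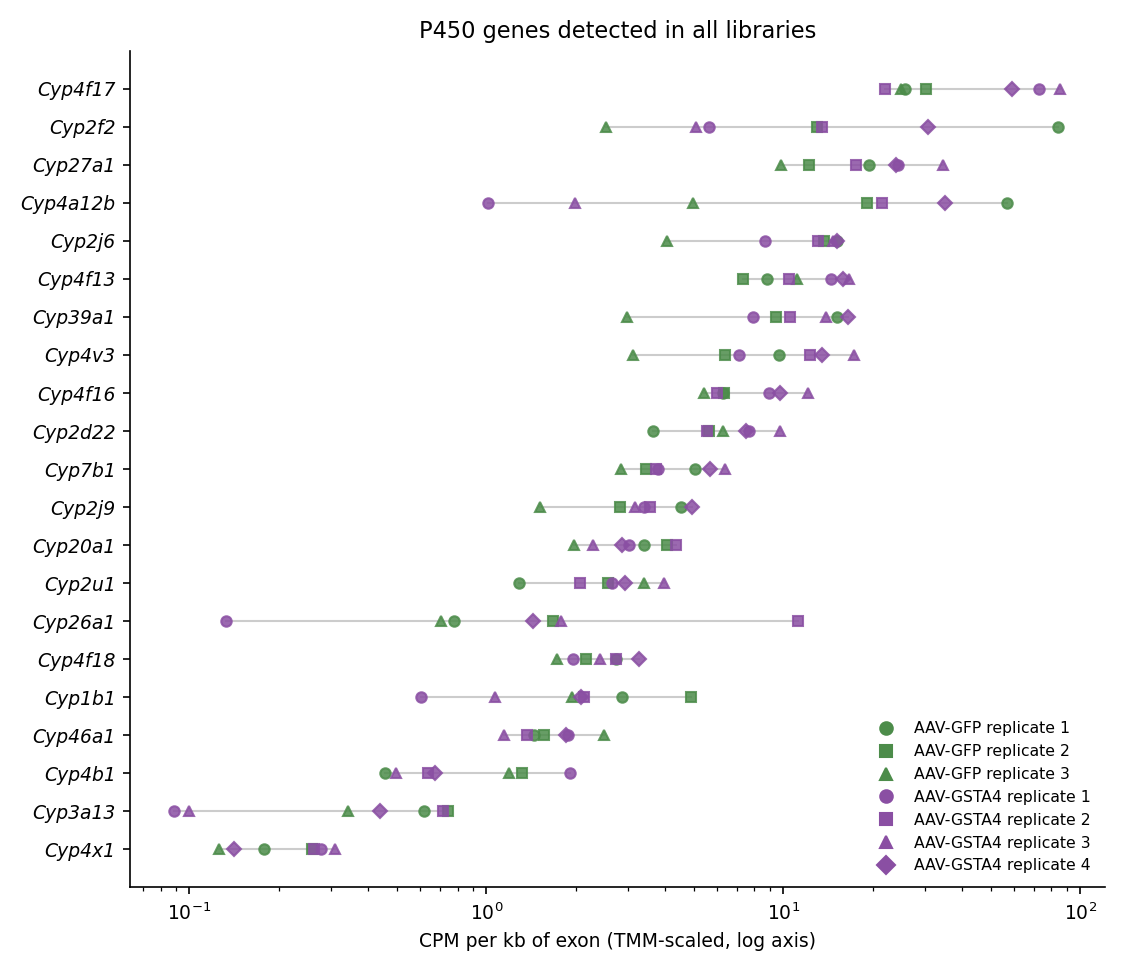
Level of the 21 P450 genes detected in all 7 libraries, in TMM-scaled CPM per kb of exon on a log axis, ordered by the mean; each symbol is 1 library, and the grey line spans its range. Cyp4f17 has the highest mean, at 45.8 CPM per kb, and Cyp2f2, Cyp4a12b and Cyp26a1 have the widest ranges among the genes shown.

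The comparison of AAV-GSTA4 with AAV-GFP asks whether GSTA4 altered P450 expression in the aged RPE. Of the 99 genes, 33 passed the expression filter and were tested with all other genes in edgeR's quasi-likelihood test. At an adjusted p-value under 0.05, 0 of 33 were called, as were 0.0% of all 15075 genes tested; the smallest adjusted p-value of a P450 gene was 0.373 and of any gene 0.363. DESeq2 also called 0 of those it adjusted, against 1.3% of all genes it adjusted. It gave no adjusted p-value for some of the 33, such as Cyp4a12a and Cyp4f15. By limma-voom, 0 of the 33 and 0.0% of all genes were called. The 2 transgene rows, hGSTA4 and d2EGFP, were among the genes tested, and edgeR's test called 0 of them as well. A lack of calls is thus no sign that levels were equal. Before adjustment, 6 P450 genes, or 18.2%, had a p-value under 0.05, beside 11.9% of all genes: 5 were higher in AAV-GSTA4, beside 5.27% of all genes, and 1 was lower, beside 6.63%. With the rod score described below as a covariate, the balance turned: 3 were higher, beside 3.47% of all genes, and 6 lower, beside 5.67%, and 3 of these 9 were among the 6. The groups of 0 P450 genes failed to overlap, beside 12.0% of all genes. Log2 fold changes were above 0 for 15 genes (45.5%) and below 0 for 18, beside 44.6% of all genes above 0, and their median was -0.09 beside -0.07 for all genes.

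When library totals replaced TMM, the median over all genes moved by -0.30 on the log2 scale, and the share of all genes above 0 was 24.1%. The P450 genes above 0 were then 13 of 33 (39.4%), and only Cyp1b1, lower, had an unadjusted p-value under 0.05, beside 15.9% of all genes. The 6 genes kept their direction in all 18 alternatives, but the count at an unadjusted p-value under 0.05 was 1 without AAV-GFP replicate 2, beside 10.5% of all genes, and 1 without AAV-GSTA4 replicate 3, beside 6.88%, Cyp4f17 in both cases. It was 3 without AAV-GSTA4 replicate 4, beside 8.47%, and 5 without AAV-GFP replicate 3, beside 12.5%, of which 3 were among the 6, Cyp4f13, Cyp1b1 and Cyp27a1.

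**Figure D3:**
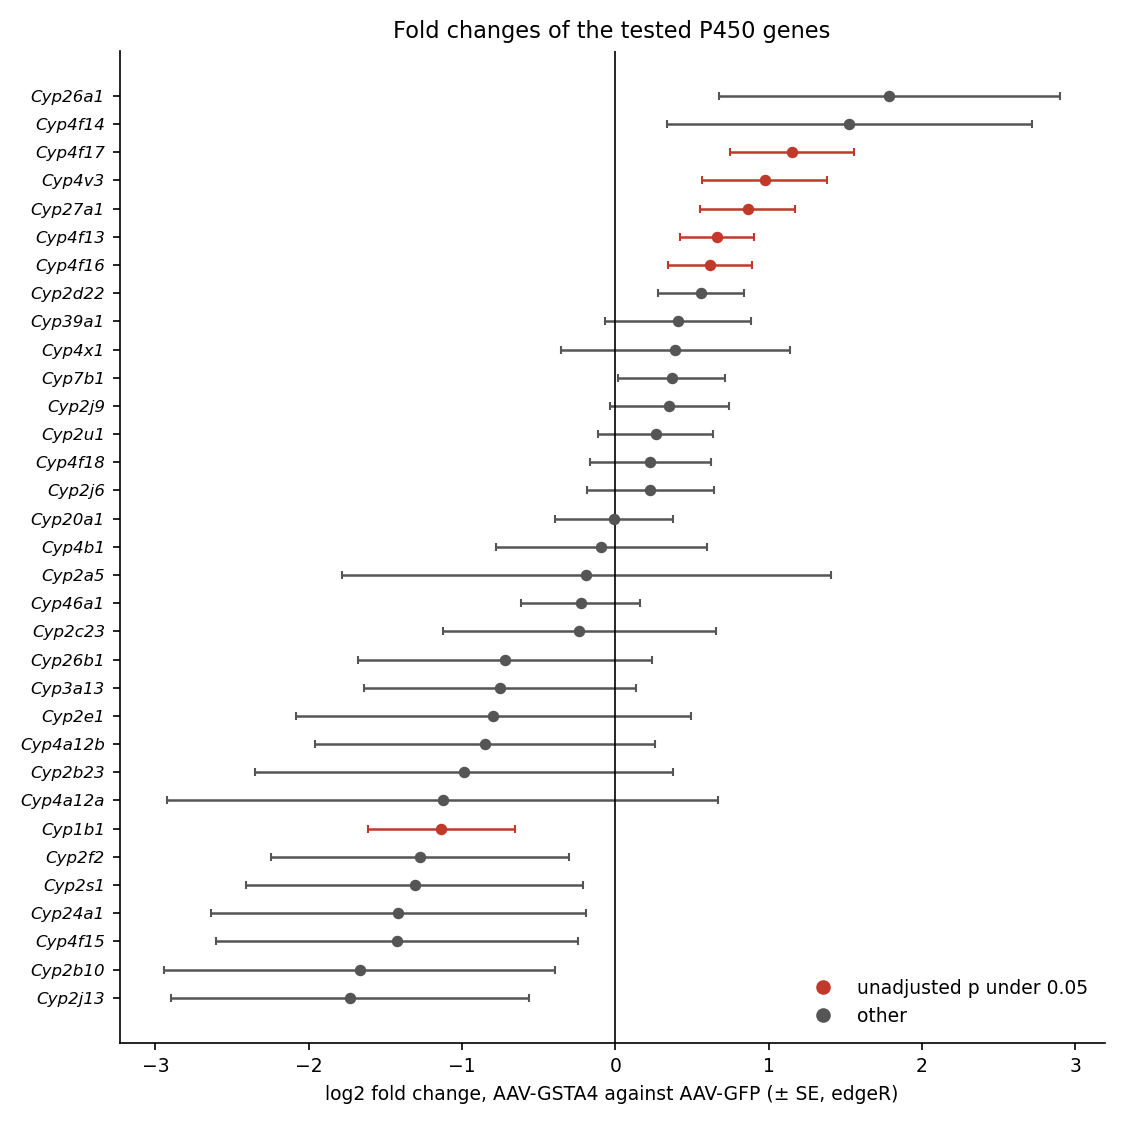
Log2 fold changes of AAV-GSTA4 (n = 4) against AAV-GFP (n = 3) for the 33 tested P450 genes, with bars of 1 standard error from the edgeR fit; red marks an unadjusted p-value under 0.05. The red points comprise 5 genes above 0, from Cyp4f16 at 0.62 to Cyp4f17 at 1.15, and Cyp1b1 at -1.13; 0 genes passed the adjusted threshold.

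Cyp2f2 lies on chromosome 7 (GRCm38, chr7:27119909-27133660, plus strand) in a cluster of Cyp2 genes, between Cyp2a12 and Cyp2t4. Its promoter window from RefSeq (GRCm38.p6, chr7:27119705-27120004, plus strand), printed 5′ to 3′ on the gene's strand from 250 bases before to 50 after the annotated start, is shown because the gene was the most uneven of the abundant P450 genes together with Cyp4a12b. It held none of the 4 motifs searched on both strands, which were chosen after the values were seen: TATAAA, the dioxin response core GCGTG, CAAAGTCCA, a site of the nuclear receptor HNF4A, and the retinoic acid response element made of 2 direct repeats of AGTTCA spaced by 5 bases. Of 32851 RefSeq promoter windows of 300 bases, these were held by 13.6%, 32.4%, 0.475% and 0.0244%. A lack of matches says only that these letters are not in this window.
Cyp2f2: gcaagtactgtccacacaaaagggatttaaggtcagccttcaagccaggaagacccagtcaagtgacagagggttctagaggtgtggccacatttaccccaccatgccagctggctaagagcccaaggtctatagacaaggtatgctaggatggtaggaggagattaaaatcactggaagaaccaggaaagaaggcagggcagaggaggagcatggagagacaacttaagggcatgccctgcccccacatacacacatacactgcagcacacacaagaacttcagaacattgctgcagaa

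The counts of Cyp2f2 were 3665, 682 and 107 in AAV-GFP, or 171, 26.3 and 5.14 CPM. In AAV-GSTA4 they were 217, 570, 175 and 1689, or 11.4, 27.4, 10.3 and 62.3 CPM. Replicate 1 was far above the other AAV-GFP libraries, replicate 4 was the highest of AAV-GSTA4, and the AAV-GFP libraries lay above, within and below the AAV-GSTA4 range. AAV-GFP replicate 1 is also the library of that group that held little d2EGFP, as given above. The means of Cyp2f2 were 67.4 CPM ± 90.2 (SD, n = 3) and 27.8 CPM ± 24.3 (SD, n = 4). The log2 fold change was -1.27 ± 0.97 (SE; edgeR adjusted p = 0.618), and 0.82 without AAV-GFP replicate 1; over all alternatives the adjusted p-value lay between 0.00168 and 0.947. The exact permutation test of mean log2 CPM, two-sided over all 35 relabellings, gave a difference of -0.43 and p = 0.743, where the smallest p-value the design allows is 0.0286.

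In each group, Cyp2f2 was lower in libraries with more rod RNA. The rod score, the mean log2 CPM of the 18 rod markers, was 8.45, 9.22 and 9.89 in AAV-GFP and 8.40, 8.12, 8.42 and 7.59 in AAV-GSTA4. With this score as a covariate, the log2 fold change of Cyp2f2 was -3.99 ± 0.28 (SE; edgeR adjusted p = 0.00168), and Cyp2f2 was the 1 gene called among all 15075 (0.00663%). With the covariate and each library left out in turn, a check chosen after the data were seen, the log2 fold change lay between -4.07 and -3.77. Its adjusted p-value was then 0.00388 to 0.0344, except without AAV-GFP replicate 1, where it was 0.703. The share of all genes called was 0.0% without that library and 0.0129%, 0.0326%, 0.00666%, 0.0135%, 0.00667% and 0.00676% without each of the others. Every AAV-GFP library had a higher rod score than every AAV-GSTA4 library, so the vector and the rod content cannot be told apart fully, and Cyp2f2 was singled out with this result already known.

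Markers of other tissues were set beside Cyp2f2. A list of 9 ocular surface epithelium genes, 8 of them detected in all 7 libraries, summed to 1117, 1019 and 704 CPM in AAV-GFP and to 195, 957, 143 and 1064 CPM in AAV-GSTA4. Within AAV-GSTA4, Cyp2f2 and these markers were both high in replicates 2 and 4 and both low in replicates 1 and 3, whereas within AAV-GFP the sum varied little and Cyp2f2 widely. Muc4, a surface mucin, was at 171, 86.0 and 34.1 CPM and at 12.9, 155, 15.0 and 96.7 CPM, and Krt12, the keratin of corneal epithelium, at 2.56, 19.9 and 112 CPM and at 2.00, 2.69, 0.999 and 0.184 CPM, highest where Cyp2f2 was lowest. The 7 airway-type markers summed to 20.7 to 63.3 CPM, with Scgb1a1, the secretoglobin of club cells, at 6.33 to 18.5 CPM, and the 8 hepatocyte markers to 1.00 to 3.65 CPM, with 2 of them at 0 in every library. The Y-linked genes, a measure of male tissue, summed to 465, 0.0772 and 0.384 CPM and to 0.158, 2.83, 407 and 307 CPM, so both libraries highest in Cyp2f2 were of male type, but AAV-GSTA4 replicate 3, with low Cyp2f2, was as well. The part of any of these in the level of Cyp2f2 was not tested.

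Over the 7 libraries, the genes whose log2 CPM was most like that of Cyp2f2 were Trim13, a ubiquitin ligase (Pearson r = 0.972), Hmox2, the constitutive heme oxygenase (0.968), Orm1, an acute phase plasma protein (0.968), Orc6 of the origin recognition complex (0.968) and Cdh11, a cadherin (0.965). With 7 libraries and 15075 genes such values describe the pattern only and the points share their depth and tissue makeup. Among P450 genes the most alike were Cyp2a5 at 0.893, Cyp4a12b at 0.825 and Cyp4a12a at 0.815.

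Those 3 genes showed the pattern in their own counts. Cyp2a5, a coumarin hydroxylase of the cluster that holds Cyp2f2, had 419, 10 and 1 counts in AAV-GFP and 12, 170, 3 and 386 in AAV-GSTA4. Cyp4a12b was at 136, 45.8 and 11.9 CPM and at 2.42, 51.5, 4.76 and 84.1 CPM, and Cyp4a12a at 6.90, 0.927 and 0 CPM and at 0, 0, 0.529 and 4.17 CPM. All 3 were highest in AAV-GFP replicate 1 and next highest in AAV-GSTA4 replicate 4. Cyp2b10, an enzyme inducible by phenobarbital, followed the same order at the top with 8.02 and 2.84 CPM, while Cyp2e1, an ethanol-oxidising enzyme, was at 7.55 and 7.93 CPM in these libraries. The log2 fold changes were -0.19 for Cyp2a5, -0.85 for Cyp4a12b, -1.13 for Cyp4a12a, -1.67 for Cyp2b10 and -0.80 for Cyp2e1, with edgeR adjusted p-values of 0.617 to 0.976. Without AAV-GFP replicate 1, the first 4 of these were above 0, at 4.67 for Cyp2a5, 0.31 for Cyp4a12b, 1.33 for Cyp4a12a and 0.53 for Cyp2b10. With the rod score as a covariate, all 5 were below 0 as Cyp2f2 was, at -4.50, -4.28, -5.77, -4.39 and -3.90, with edgeR adjusted p-values of 0.409 to 0.560.

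Cyp4a12a and Cyp4a12b, neighbours on chromosome 4 (GRCm38, chr4:115299046-115332815 and chr4:115411624-115439034), share much of their sequence, which bears on the 2 levels just given. Their coding sequences of 1524 bases were identical at 98.6% of aligned positions (GENCODE M21 transcripts), with 20 mismatches. Of all 50-base windows of their transcripts, 48.9% of Cyp4a12a and 49.4% of Cyp4a12b occurred in the other gene. The stretch from coding base 465 to 554, shown because it is among the less alike parts, has 5 mismatches, in capitals.
Cyp4a12a: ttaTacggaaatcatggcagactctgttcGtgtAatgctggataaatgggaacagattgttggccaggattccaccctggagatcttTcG
Cyp4a12b: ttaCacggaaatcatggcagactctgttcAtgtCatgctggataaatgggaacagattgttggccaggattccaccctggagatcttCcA
How reads that map to both were counted is not given in the sources used here, so the split between the pair is uncertain. Among the other tested genes, windows shared with another gene exceeded 10% for Cyp2a5 (37.0%, mostly with Cyp2a4) and Cyp4f16 (17.4%, mostly with Cyp4f37), and 13 of the 33 shared none.

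**Figure D4:**
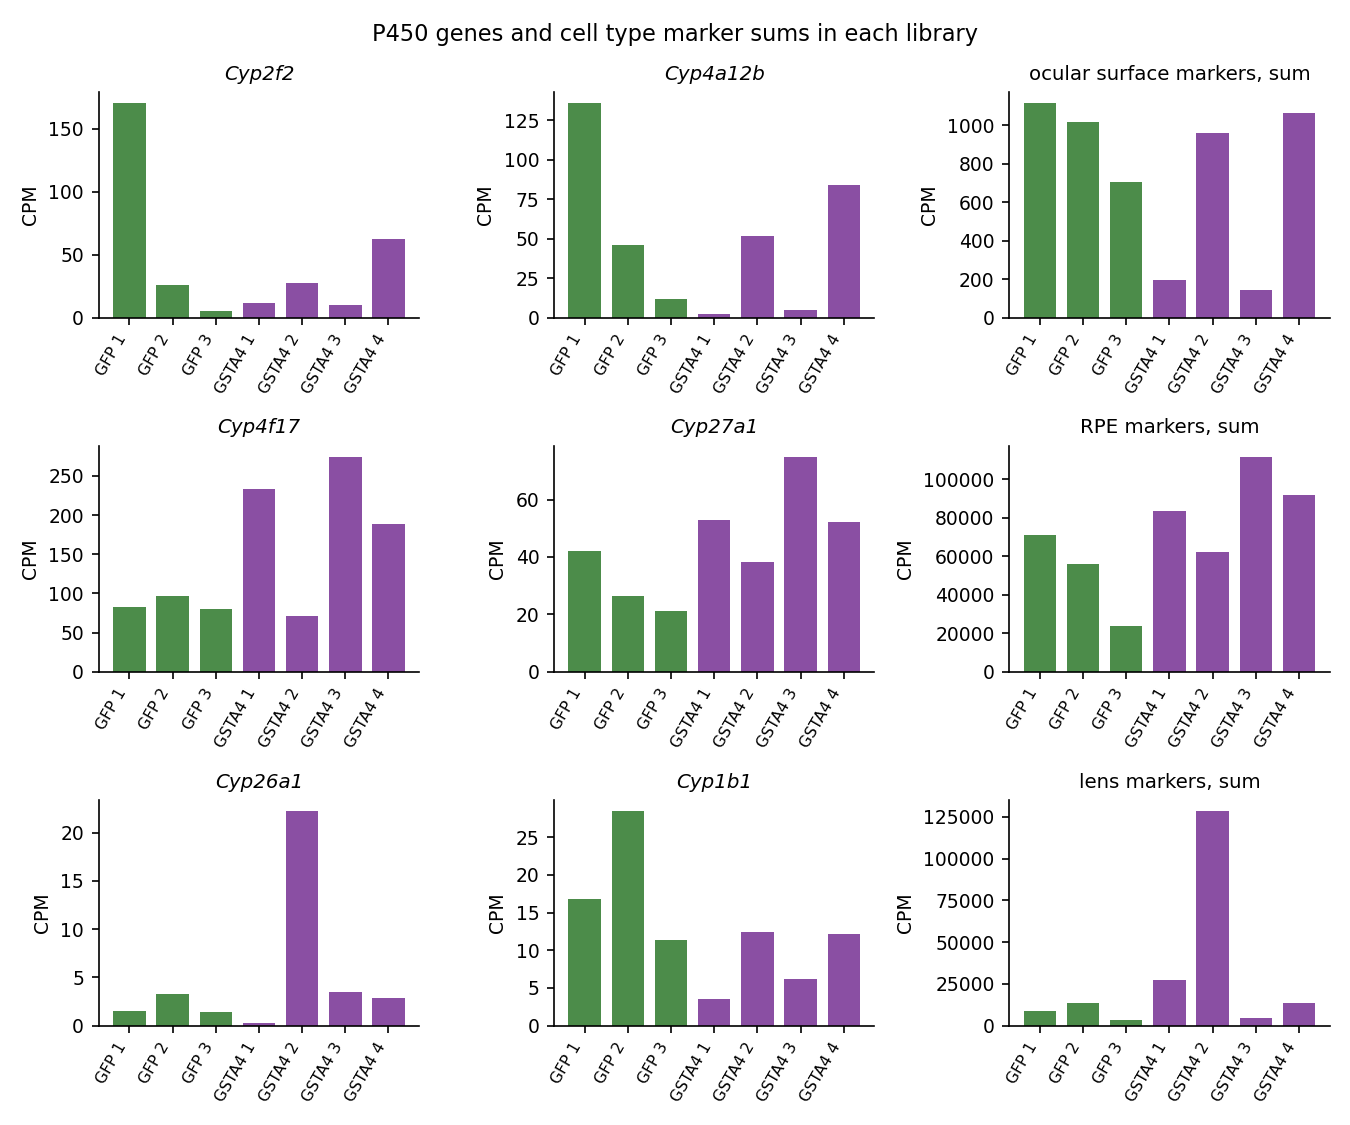
Level of 6 P450 genes and summed level of 3 marker lists in each library, in TMM-scaled CPM; green bars are the 3 AAV-GFP libraries, purple bars the 4 AAV-GSTA4 libraries, and each panel has its own scale from 0. Cyp2f2 and Cyp4a12b are highest in AAV-GFP replicate 1, Cyp4f17 and Cyp27a1 in AAV-GSTA4 replicate 3, which also has the highest RPE marker sum, and Cyp26a1 in AAV-GSTA4 replicate 2, which has the highest lens marker sum.

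In family 4, the fatty acid and eicosanoid hydroxylases, 11 of 20 genes were tested, and 4 had an unadjusted p-value under 0.05, all higher in AAV-GSTA4, beside 5.27% of all genes. Cyp4f17 (chr17:32506050-32530143) was at 82.0, 97.1 and 79.6 CPM in AAV-GFP and at 233, 70.5, 274 and 189 CPM in AAV-GSTA4. Apart from AAV-GSTA4 replicate 2, which was below every AAV-GFP library, the treated libraries were 189 CPM or more. This is a log2 fold change of 1.15 ± 0.40 (SE; edgeR adjusted p = 0.373).

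Cyp4f13 (chr17:32924688-32947402), of the same cluster, was at 39.0, 32.4 and 49.5 CPM in AAV-GFP and at 64.4, 46.4, 73.7 and 70.3 CPM in AAV-GSTA4, a log2 fold change of 0.66 ± 0.24 (SE). Cyp4f16 (chr17:32536558-32551798) was at 19.3, 19.4 and 16.6 CPM and at 27.4, 18.4, 37.2 and 30.0 CPM, a log2 fold change of 0.62 ± 0.27 (SE). In both genes AAV-GSTA4 replicate 2 alone lay within the range of AAV-GFP. Cyp4v3 (chr8:45304944-45333216), an omega-hydroxylase of fatty acids whose human counterpart is expressed in RPE, was at 36.8, 24.2 and 11.9 CPM and at 27.0, 46.8, 65.9 and 51.5 CPM, a log2 fold change of 0.98 ± 0.41 (SE). Here AAV-GSTA4 replicate 1 lay within the range of AAV-GFP. Adjusted p-values were 0.374, 0.414 and 0.397 in edgeR's test, and the log2 fold changes by library totals were 0.33, 0.32 and 0.74.

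The RPE marker sum and these genes were highest in the same library: AAV-GSTA4 replicate 3 had the highest sum (111598 CPM) and the highest level of Cyp4f17, Cyp4f13, Cyp4f16 and Cyp4v3, whereas its hGSTA4 level was the lowest of that group (2.64 CPM). Within AAV-GFP the sum was 71041, 56120 and 23805 CPM and Cyp4v3 ranked these libraries in the same order, whereas Cyp4f17 and Cyp4f16 varied little and Cyp4f13 was highest where the sum was lowest. AAV-GSTA4 replicate 2, the lowest of its group for Cyp4f17, Cyp4f13 and Cyp4f16, had the lowest RPE sum of that group (62032 CPM). It also had the highest lens marker sum (128676 CPM), whereas Cyp4v3 was lowest in replicate 1 of that group. The part of RPE or lens content in these differences was not tested. With the rod score as a covariate, the log2 fold changes were 1.33 for Cyp4f17, 0.83 for Cyp4f13, 0.57 for Cyp4f16 and 0.25 for Cyp4v3, with adjusted p-values of 0.542 to 0.885 in edgeR's test.

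The other tested family 4 genes were lower in level. Cyp4f18, a leukotriene hydroxylase of myeloid cells, was at 3.22 to 5.08 CPM in AAV-GFP and 3.63 to 6.05 CPM in AAV-GSTA4, with a log2 fold change of 0.23 ± 0.40 (SE). Cyp4b1 ranged from 1.03 to 4.32 CPM, Cyp4f15 from 0 to 3.86 CPM, Cyp4f14 from 0.0772 to 4.61 CPM and Cyp4x1, a brain-type member, from 0.528 to 1.29 CPM, and each of these genes overlapped between the groups.

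Among the enzymes of sterol and bile acid metabolism, 4 of 6 were tested. Of these, Cyp27a1 alone was higher at an unadjusted p-value under 0.05, beside 5.27% of all genes. Cyp27a1 (chr1:74713574-74737892), which hydroxylates cholesterol in mitochondria, was at 42.2, 26.5 and 21.3 CPM in AAV-GFP and at 52.8, 38.3, 74.9 and 52.3 CPM in AAV-GSTA4. AAV-GSTA4 replicate 2 alone lay within the AAV-GFP range, and it had the lowest RPE marker sum of its group (62032 CPM). Cyp27a1 ranked the AAV-GFP libraries as that sum did and was highest in AAV-GSTA4 replicate 3, as the sum was. The part of RPE content in the Cyp27a1 level was not tested. The log2 fold change was 0.86 ± 0.31 (SE; edgeR adjusted p = 0.373), and it was 0.54 with the rod score as a covariate.

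Cyp39a1 (chr17:43667425-43751431) was at 46.3, 28.8 and 9.08 CPM and at 24.2, 32.1, 42.6 and 50.4 CPM, a log2 fold change of 0.41 ± 0.48 (SE). Cyp7b1, the oxysterol and steroid 7-alpha-hydroxylase, was at 10.95, 7.49 and 6.15 CPM and at 8.21, 8.06, 13.8 and 12.3 CPM, a log2 fold change of 0.37 ± 0.35 (SE). Cyp46a1, the neuronal cholesterol 24-hydroxylase, was at 4.75, 5.14 and 8.16 CPM and at 6.21, 4.51, 3.76 and 6.09 CPM, a log2 fold change of -0.23 ± 0.39 (SE). For Cyp39a1 and Cyp7b1 the lowest library was AAV-GFP replicate 3, and for Cyp46a1 that library was the highest. Adjusted p-values were 0.700 to 0.845 in edgeR's test. Cyp7a1, the rate-limiting enzyme of bile acid synthesis in liver, had at most 9 counts in a library.

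Retinoic acid is cleared by the Cyp26 enzymes, of which 2 of 3 were tested. Cyp26a1 (chr19:37697798-37701536) is itself induced by retinoic acid, and its promoter is shown for this known control. The window from RefSeq (GRCm38.p6, chr19:37697558-37697857, plus strand) held 1 match to the retinoic acid response element, as its reverse complement, in capitals, with its first base 32 bases before the annotated start. Of the 23 tested P450 genes with a window, this was the only match to that motif. The match is a description of the letters, not a measured site.
Cyp26a1: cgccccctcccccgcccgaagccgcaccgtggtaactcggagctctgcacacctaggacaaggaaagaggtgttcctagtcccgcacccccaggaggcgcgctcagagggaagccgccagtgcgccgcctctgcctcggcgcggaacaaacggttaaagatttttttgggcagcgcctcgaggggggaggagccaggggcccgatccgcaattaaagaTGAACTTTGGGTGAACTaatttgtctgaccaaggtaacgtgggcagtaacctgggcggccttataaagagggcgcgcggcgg

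Cyp26a1 was at 1.54, 3.32 and 1.39 CPM in AAV-GFP and at 0.263, 22.3, 3.53 and 2.84 CPM in AAV-GSTA4. AAV-GSTA4 replicate 2 was far above all others, and replicate 1 was below all others. The log2 fold change was 1.79 ± 1.11 (SE; edgeR adjusted p = 0.534), and 0.09 ± 0.92 (SE) without AAV-GSTA4 replicate 2. That library also had the highest lens marker sum, 128676 CPM against 3131 to 27169 CPM in the other 6. The next highest sum, 27169 CPM, was in AAV-GSTA4 replicate 1, where Cyp26a1 was lowest (0.263 CPM). The part of lens RNA in the Cyp26a1 level was not tested. Cyp26b1 was at 1.72, 1.97 and 3.602 CPM and at 0.526, 0.0960, 3.17 and 2.10 CPM, with its lowest level in the library where Cyp26a1 was highest. Its log2 fold change was -0.72 ± 0.96 (SE). Cyp26c1 was detected in AAV-GFP replicate 2 alone, with 5 counts.

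In family 1, Cyp1b1 (chr17:79701537-79715061, minus strand) was the 1 gene of 3 detected. It metabolises retinoids, estrogens and aromatic hydrocarbons and is a target of the aryl hydrocarbon receptor. Its promoter window (RefSeq, GRCm38.p6, chr17:79715012-79715311, minus strand) held 1 match to the receptor's core motif GCGTG, printed as CACGC in capitals, 76 bases before the start, a motif that 9 of the 23 tested P450 genes with a window held.
Cyp1b1: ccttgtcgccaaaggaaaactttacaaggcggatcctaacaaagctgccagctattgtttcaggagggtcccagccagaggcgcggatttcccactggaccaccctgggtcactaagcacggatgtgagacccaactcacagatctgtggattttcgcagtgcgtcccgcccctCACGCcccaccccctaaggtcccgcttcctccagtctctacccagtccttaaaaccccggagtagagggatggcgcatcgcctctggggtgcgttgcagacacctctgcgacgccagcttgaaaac

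Cyp1b1 was at 16.7, 28.5 and 11.4 CPM in AAV-GFP and at 3.53, 12.4, 6.23 and 12.1 CPM in AAV-GSTA4. The AAV-GSTA4 libraries were all below 2 of the 3 AAV-GFP libraries, while AAV-GFP replicate 3 lay within their range. The log2 fold change was -1.13 ± 0.48 (SE; edgeR adjusted p = 0.401), -1.39 with library totals and -2.01 with the rod score as a covariate. The aryl hydrocarbon receptor gene Ahr was at 8.81 to 16.7 CPM in AAV-GFP and 5.05 to 10.1 CPM in AAV-GSTA4 and overlapped between the groups, as did its repressor Ahrr, at 16.8 to 83.5 CPM and 10.8 to 29.8 CPM. Markers of ciliary epithelium, a tissue next to the RPE, summed to 140, 187 and 199 CPM in AAV-GFP and to 77.2, 104, 41.5 and 120 CPM in AAV-GSTA4. The sum and Cyp1b1 were both lowest in AAV-GSTA4 replicates 1 and 3. Within AAV-GFP, however, replicate 3 had the highest sum (199 CPM) and the lowest Cyp1b1 (11.4 CPM). The part of this tissue in the Cyp1b1 level was not tested.

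In family 2, the largest of the xenobiotic families, 12 of 48 genes were tested. The log2 fold change was above 0 for 4 and below 0 for 8, beside 44.6% of all genes above 0. An unadjusted p-value under 0.05 was found for 0 of the 12, beside 11.9% of all genes. Cyp2j6 was at 54.9, 49.6 and 14.6 CPM in AAV-GFP and at 31.2, 47.2, 52.9 and 54.8 CPM in AAV-GSTA4, a log2 fold change of 0.23 ± 0.41 (SE). Cyp2d22 was at 14.3, 22.0 and 24.4 CPM and at 30.0, 21.6, 38.3 and 29.2 CPM, a log2 fold change of 0.56 ± 0.28 (SE). AAV-GSTA4 replicate 2 alone lay within the AAV-GFP range of Cyp2d22, as for Cyp4f13, and the edgeR adjusted p-value was 0.463. Cyp2u1, a fatty acid hydroxylase of brain, and Cyp2j9 were at 6.76 to 20.9 CPM and 5.04 to 16.5 CPM, with log2 fold changes of 0.26 ± 0.38 (SE) and 0.35 ± 0.39 (SE). Cyp2c23, Cyp2s1, Cyp2b23 and Cyp2j13 were at most at 1.12, 3.31, 2.50 and 0.965 CPM, with log2 fold changes of -0.23, -1.31, -0.99 and -1.73 and standard errors of 0.89 to 1.36.

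The genes next to Cyp2f2 on the chromosome had few counts. Cyp2a12, on its left, had 21 counts in AAV-GFP replicate 3 and 0 elsewhere. Cyp2t4, on its right, had 0, 10 and 88 counts in AAV-GFP and 8, 8, 3 and 3 in AAV-GSTA4. Neither followed the library order of Cyp2f2, which was lowest in AAV-GFP replicate 3.

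In family 3, the drug-metabolising enzymes of liver and gut, Cyp3a13 was the 1 gene of 9 tested. It was at 1.82, 2.20 and 1.01 CPM in AAV-GFP and at 0.263, 2.11, 0.294 and 1.29 CPM in AAV-GSTA4, a log2 fold change of -0.75 ± 0.89 (SE). Cyp3a11 and Cyp3a44 had at most 15 and 22 counts in a library, both in AAV-GFP replicate 3. Cyp20a1, a conserved enzyme of unknown substrate, had the log2 fold change nearest 0, with a mean of 7.20 CPM ± 2.45 (SD, n = 3) in AAV-GFP and of 7.17 CPM ± 2.01 (SD, n = 4) in AAV-GSTA4. Of the vitamin D enzymes, Cyp24a1, which degrades the hormone, ranged from 0 to 1.34 CPM, the 25-hydroxylase Cyp2r1 had at most 19 counts and the 1-alpha-hydroxylase Cyp27b1 at most 8. Of the steroid hormone enzymes, Cyp17a1 had 96 counts in AAV-GFP replicate 3, 7 in AAV-GSTA4 replicate 3 and at most 1 elsewhere, and Cyp11a1, which makes pregnenolone, had at most 9.

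Other genes of P450 function were taken from lists chosen for their roles. Of 17 tested genes for electron supply and heme synthesis, 4 were higher and 1 lower at an unadjusted p-value under 0.05, beside 5.27% and 6.63% of all genes, and 5 had all AAV-GSTA4 libraries above all AAV-GFP libraries, beside 6.44%. Of the 14 RPE markers, 5 were higher at that threshold and 4 had all AAV-GSTA4 libraries above all AAV-GFP libraries; the part of RPE content in the list was not tested. Por, the P450 oxidoreductase that serves all microsomal P450 enzymes, was at 93.1, 74.4 and 92.7 CPM in AAV-GFP and at 140, 118, 172 and 129 CPM in AAV-GSTA4, so the groups did not overlap. This is a log2 fold change of 0.69 ± 0.22 (SE; edgeR adjusted p = 0.363). Alad, of heme synthesis, and Cyb5r3, the cytochrome b5 reductase, also did not overlap, with log2 fold changes of 0.78 ± 0.24 (SE) and 0.63 ± 0.25 (SE), whereas Pgrmc2, a heme chaperone, overlapped at -0.85 ± 0.34 (SE).

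Of 16 tested receptors and partners that control P450 genes, 1 was higher and 1 lower at an unadjusted p-value under 0.05. The shares of all genes were 5.27% and 6.63%. Hnf4a, a nuclear receptor of liver and other epithelia, was at 25.7, 24.4 and 6.67 CPM and at 57.9, 29.0, 58.4 and 48.2 CPM, a log2 fold change of 1.35 ± 0.45 (SE). Nr1h4, the bile acid receptor, had a log2 fold change of -1.42 ± 0.59 (SE), and the xenobiotic receptors Nr1i2 and Nr1i3 were at most 0.148 and 1.01 CPM. Of 13 tested genes of retinoic acid synthesis and signalling, 2 were higher at an unadjusted p-value under 0.05, beside 5.27% of all genes. They were the retinol-binding protein receptor Stra6 at 1.25 ± 0.34 (SE) and the retinyl ester synthase Lrat at 1.15 ± 0.37 (SE). Both are also in the RPE marker list. DESeq2 called both, with adjusted p-values of 0.0120 and 0.0425, beside 1.3% of all genes it adjusted. Of 8 tested epoxide hydrolases and conjugating enzymes, 0 had an unadjusted p-value under 0.05, beside 11.9% of all genes. Of 3 P450 genes whose symbols fall outside the rule, 1 was higher at an unadjusted p-value under 0.05, beside 5.27% of all genes. This was the prostacyclin synthase Ptgis, at 24.0 to 29.5 CPM in AAV-GFP and 27.6 to 59.0 CPM in AAV-GSTA4, a log2 fold change of 0.77 ± 0.28 (SE). The lanosterol demethylase Cyp51 was at 36.4 to 54.7 CPM and 40.9 to 68.4 CPM. The remaining gene, not named here, had all AAV-GSTA4 libraries below all AAV-GFP libraries. The groups of 12.0% of all genes did not overlap in either direction. Adjusted p-values of all genes named here were 0.363 or more in edgeR's test with the vector as the only factor.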

How the data were processed

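RNA was measured as polyadenylated transcripts of mouse RPE, made into cDNA with a SMART-Seq v4 low-input kit and cut by the Nextera XT transposase, per the labels' protocols. As they name no molecular identifiers, counting limits cover counting error only. The deposited values are raw read counts per gene symbol, in 1 table with a column for each of 7 libraries. The submitters' processing notes name STAR 2.7.1a, featureCounts 1.6.2 and human and mouse builds (GRCm38 for mouse); the gene annotation used for counting, strandedness and multi-mapping are not given in the sources used here. Of the symbols, 24 stood on more than 1 row, none of them a P450 gene. Replicates are named by the sample titles.

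The P450 genes, the gene lists and the motifs were chosen with earlier results of these data known. Counts were tested with edgeR 4.0.16 (R 4.3.3): quasi-likelihood F-test, TMM scaling, default expression filter, robust dispersions, Benjamini-Hochberg adjustment over 15075 genes, threshold 0.05, all 7 libraries and the vector as the only factor. The biological coefficient of variation was 48.2%. Standard errors were derived from the log2 fold change and its F statistic. Log2 CPM used a prior count of 2. Gene coordinates, exon lengths and transcripts are from GENCODE M21 (GRCm38), which held all 99 symbols, and promoters from RefSeq (GRCm38.p6), which held 76. The script was tested on simulated data. Alternatives used DESeq2 1.42.0, limma 3.58.1 with voom quality weights, other scalings and filters, replicate blocks, covariates for rod or Y-linked RNA, and each library left out.

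Genes were named by a rule: Cyp2f2, its chromosomal neighbours and the 5 genes most like it; tested P450 genes with an unadjusted p-value under 0.05 or groups that did not overlap; detected members of the role lists; the 3 most abundant of families 2, 3 and 4; and up to 4 genes per other list by p-value. Cyp2a5, Cyp4a12a, Cyp2b10, Cyp2e1, Cyp2u1, Cyp2j9, the low family 4 genes, Cyp2c23, Cyp2s1, Cyp2b23, Cyp2j13, Cyp51, Muc4, Krt12, Scgb1a1, Ahr, Ahrr, Nr1i2, Nr1i3 and the genes detected in 1 library were named after their values were seen.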

Additional observations from a re-analysis of the deposited data

Results flagged for a closer look

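Among the 4 AAV-GSTA4 libraries, a single library lay far above the rest for 4 of the 33 tested P450 genes, with a gap to the next library, as a share of the group's range, past Dixon's limit for 4 values. Chance gives such a gap in about 5% of groups of normal values. These are untransformed CPM, and among all 15075 tested genes 7.32% had such a gap, beside 12.1% of the P450 genes. The AAV-GFP group of 3 was too small to examine. Cyp26a1 was at 22.3 CPM in AAV-GSTA4 replicate 2, a gap of 0.852 of the range. Cyp4b1, an enzyme of lung and other epithelia, was at 4.32 CPM in replicate 1, a gap of 0.876. Replicate 4 was apart for 2 genes: Cyp2b10 at 2.84 CPM, a gap of 0.868, and Cyp4a12a at 4.17 CPM, a gap of 0.873.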

How the results depend on the processing

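The number of P450 genes called stayed at 0 in 17 of 18 alternatives and was 1, Cyp2f2, with the rod score covariate; with that covariate and each library left out it was 0 without AAV-GFP replicate 1 and 1 otherwise. The log2 fold change of Cyp2f2 was -3.99 with the rod score covariate and -2.002 to 0.82 across fits that left out a library; with the covariate and AAV-GFP replicates 2 and 3 or AAV-GSTA4 replicates 1 to 4 left out in turn it was -3.99, -3.93, -3.96, -4.07, -3.91 and -4.02. The 6 genes at an unadjusted p-value under 0.05 became 1 with library totals, beside 15.9% of all genes. With no expression filter they became 10 of 89 tested, beside 10.0%, which adds Cyp2d26, Cyp2j5, Cyp2a12 and Cyp2d10. They became 1 to 6 with a library left out, beside 6.88% to 12.7%. The genes whose groups did not overlap became 2 with library totals, beside 14.0% of all genes, and 0 to 5 with a library left out, beside 14.1% to 24.2%. The median log2 fold change was 0.35 with at least 10 counts in every library, where fewer genes are tested, and -0.32 to 0.31 with a library left out. Except as stated, the cause was not tested.

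The titles and the library names number the replicates differently, and nothing says that a number pairs animals. Deviations from the group means correlated at -0.0889, 3.33e-05 and 0.00904 by title number and at -0.0889, 0.0146 and -0.128 by library number. Of 6 libraries, 0 correlated best with their own title number and 2 with their own library number. No pairing by number was visible, but with so few libraries these values cannot decide whether there was one. With a replicate block by title number, 2 P450 genes had an unadjusted p-value under 0.05, beside 5.63% of all genes. With the block by library number there were 5, beside 7.62%. The number of P450 genes called stayed at 0 with either block.

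Signs turned for 18 P450 genes, and no turned value passed the adjusted threshold; that of Cyp2a5 without AAV-GFP replicate 1 had an unadjusted p-value under 0.05 (edgeR adjusted p = 0.352). With library totals, Cyp2u1 was -0.11 and Cyp4f18 -0.041. With median-of-ratios scaling, with no filter and with DESeq2, Cyp20a1 was 0.011. With limma-voom, Cyp2a5 was 1.76, Cyp2b10 1.07, Cyp2b23 2.81, Cyp46a1 0.026 and Cyp4x1 -0.18. With a replicate block by title number, Cyp20a1 was 0.045, Cyp2a5 0.66 and Cyp2b23 0.26, and with the block by library number, Cyp26a1 was -0.30 and Cyp2c23 0.10. With the rod score covariate, Cyp2b23 was 1.71, Cyp2c23 0.35, Cyp2j6 -0.67, Cyp2j9 -0.56, Cyp39a1 -0.72, Cyp46a1 0.085, Cyp4b1 1.02, Cyp4f18 -0.32 and Cyp7b1 -0.071. With the Y-linked covariate, Cyp20a1 was 0.024, Cyp2a5 1.10 and Cyp4b1 0.24. With a library left out, log2 fold changes ranged from -0.25 to 0.22 for Cyp20a1, -1.10 to 4.67 for Cyp2a5, -2.23 to 0.53 for Cyp2b10, -1.56 to 1.74 for Cyp2b23, -0.62 to 0.11 for Cyp2c23, -0.16 to 0.53 for Cyp2j6, -0.035 to 0.58 for Cyp2u1, -0.0025 to 0.98 for Cyp39a1, -0.36 to 0.058 for Cyp46a1, -1.69 to 1.33 for Cyp4a12a, -1.68 to 0.31 for Cyp4a12b and -0.70 to 0.18 for Cyp4b1. The count of genes detected in every library was 19 to 27 over 10 other rules or libraries left out.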
